A study of Arabidopsis thaliana with 14 samples.

Results

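The core circadian clock genes of Arabidopsis thaliana were followed through growth, arrest and fruit removal. The set was named by locus and not by its values, and it held 10 genes: CCA1 (AT2G46830_at), LHY (AT1G01060_at), RVE8 (AT3G09600_at), PRR9 (AT2G46790_at), PRR7 (AT5G02810_at), PRR5 (AT5G24470_at), TOC1 (AT5G61380_at), ELF4 (AT2G40080_at), LUX (AT3G46640_at) and GI (AT1G22770_at). Of these, 8 had a value row among the 21195 loci used here, while PRR9 and LUX had none and were not analysed. RNA was hybridised to Affymetrix expression arrays, 14 in all, in the Landsberg erecta background. Whole inflorescences gave 10 arrays. The arrested group (2 arrays), the group of fertile growing plants (1 array) and the groups collected 6 h, 24 h and 48 h after fruits were taken off arrested plants (2 arrays each) were labelled fertile, with the genotype ms1-1 co-segregant. Sterile growing inflorescences (1 array) were labelled ms1-1 homozygous. Laser-dissected shoot meristems gave 4 arrays, 1 each of arrested, fertile growing and sterile growing plants and of plants 48 h after fruit removal. The growth chamber was lit for 16 h a day, at 20 °C, and dark for 8 h, at 16 °C. The series text speaks of removing every fruit, and the protocol of leaving the few fruits nearest the inflorescence. The protocol also names plain Landsberg erecta for the fruit removal course. Inflorescences were pooled from several plants, and whether replicate arrays came from separate harvests is not stated, so p-values measure only the spread between these arrays. MS1, the gene mutated in the sterile plants, had 0 value rows and could not check that label.

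The plant clock is a loop of repressors and activators that are made in turn over the day. CCA1 and LHY, related MYB proteins made around dawn, repress the evening genes. The pseudo-response regulators PRR9, PRR7 and PRR5 are made in sequence through the day and repress CCA1 and LHY, and TOC1 does the same in the evening. RVE8, a MYB protein related to CCA1, activates evening genes. ELF4 and LUX form the evening complex with ELF3 and repress day genes, and GI is an evening protein that stabilises the photoreceptor ZTL and takes part in day-length control of flowering. The level of these transcripts therefore depends strongly on the hour of harvest, which the labels do not give. Hour of harvest and group cannot be told apart in any comparison below.

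Values are log2 expression values as deposited, so a difference of 1 is a factor of 2. Array medians over all loci were 7.27 to 7.45 in inflorescences and 7.43 to 7.49 in meristems. Titles of inflorescence arrays bear a letter, r or g, with a number, and the labels do not explain it. Both growing arrays and arrested replicate 1 were r-coded, and arrested replicate 2 and every fruit removal array were g-coded. Growing and fruit removal groups therefore share no code. The words rose, fell and called are kept for genes to which limma gave an adjusted p under 0.05 over all loci, and values after ± are standard errors from that fit. It rested on 10 arrays in 6 groups, and the lone growing arrays were assumed to vary like the pairs. In these bulk samples, fewer cells of a type and less RNA per cell cannot be told apart.

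**Figure D1:**
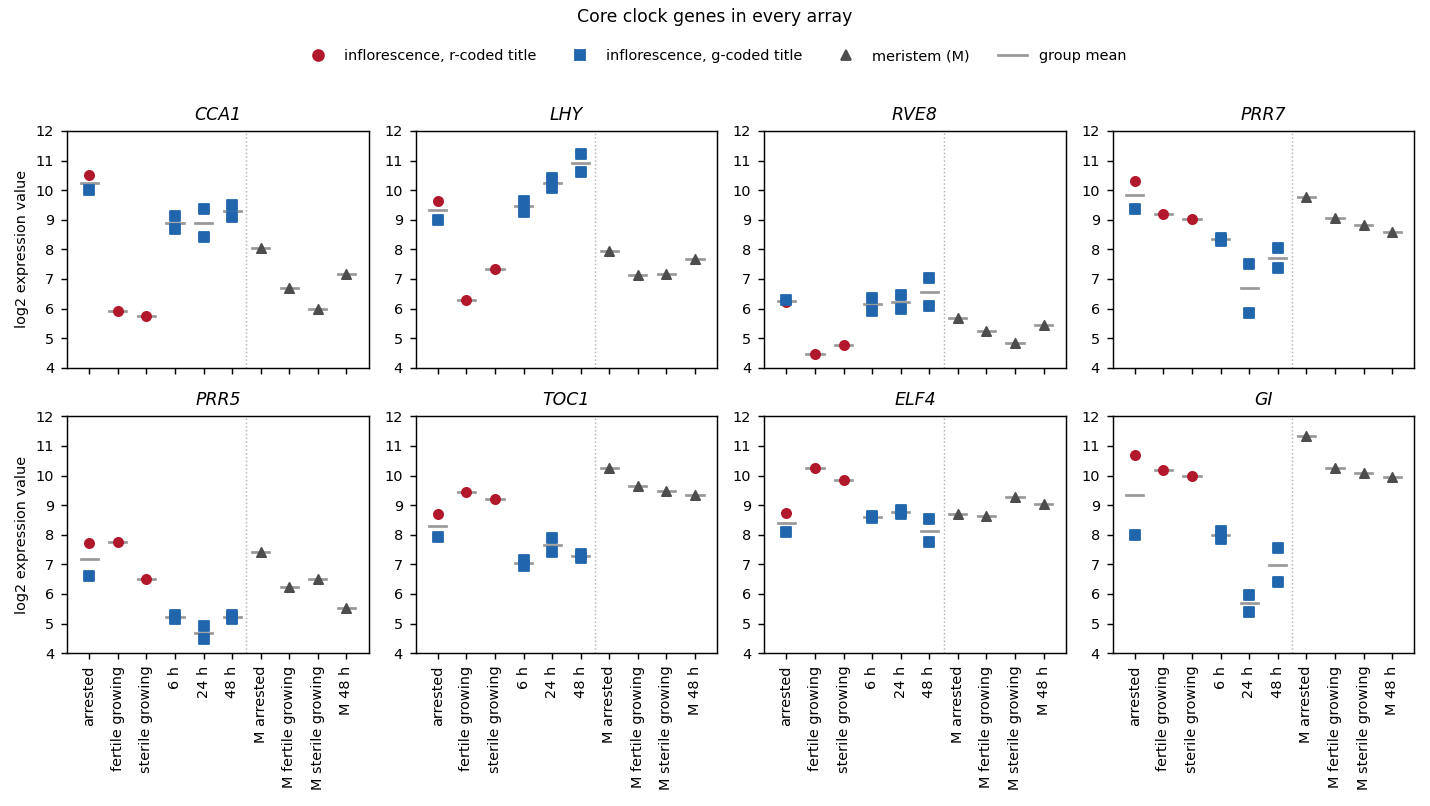
Log2 expression values of the 8 measured core clock genes in all 14 arrays, with groups along the horizontal axis, 1 point per array, grey bars for group means and M for meristem. Among the inflorescence groups, the means of CCA1, LHY and RVE8 were lowest in the growing groups, and those of PRR7, PRR5 and GI at 24 h after fruit removal.

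The dawn genes CCA1, LHY and RVE8 were all far lower in growing than in arrested inflorescences, and stayed high after fruit removal. CCA1 read 10.50 and 10.01 in the arrested arrays, 5.93 in the fertile growing and 5.75 in the sterile growing array. After fruit removal it read 9.12 and 8.68 at 6 h, 9.37 and 8.42 at 24 h, and 9.11 and 9.50 at 48 h. The growing arrays thus lay far below every other inflorescence array, and the fruit removal arrays lay between them and arrested. CCA1 fell in growing against arrested inflorescences by 4.42 ± 0.35, a 21.3-fold difference (limma adjusted p = 0.00019). It also fell at 6 h and at 24 h, by 1.36 ± 0.35 each (limma adjusted p = 0.029 for both), whereas the difference at 48 h was -0.95 ± 0.35 (limma adjusted p = 0.082). Without arrested replicate 1, which leaves g-coded arrays alone in these comparisons, the 6 h and 24 h differences were -1.11 and -1.12 and were not called (limma adjusted p = 0.093 and 0.091). The 6 h call was also lost without either 6 h array, and the 24 h call without 24 h replicate 2. With quantile normalization the differences were -1.05 and -1.1 and were not called (limma adjusted p = 0.078 and 0.065). With only the compared groups in the fit, the 24 h call was lost (limma adjusted p = 0.06). Ordered by mean level, the growing groups came first and did not differ beyond the replicate spread, the 3 fruit removal groups followed with overlapping arrays, and arrested stood highest.

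LHY, the partner of CCA1, had another order after fruit removal. It read 9.65 and 9.0 in arrested, 6.29 in fertile growing and 7.33 in sterile growing inflorescences. The values were 9.65 and 9.26 at 6 h, 10.40 and 10.08 at 24 h, and 10.60 and 11.21 at 48 h. Both 24 h arrays and both 48 h arrays thus stood above both arrested arrays, whereas the 6 h arrays overlapped with them. The growing groups were 1.04 ± 0.43 apart, sterile minus fertile, and this difference was not called (limma adjusted p = 0.25). LHY fell in growing inflorescences by 2.52 ± 0.30, or 5.72-fold (limma adjusted p = 0.0011), and rose at 48 h by 1.58 ± 0.30 (limma adjusted p = 0.008). The difference at 24 h was 0.92 ± 0.30 (limma adjusted p = 0.068), and against g-coded arrested replicate 2 alone it was 1.24 (limma adjusted p = 0.028). Without 48 h replicate 2 the rise at 48 h was 1.27 and was not called (limma adjusted p = 0.054).

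RVE8, the activator among the dawn genes, had low signal, with a mean of 5.96 that lay above 25.5% of loci. Its values were 6.21 and 6.30 in arrested, 4.47 in fertile growing and 4.76 in sterile growing inflorescences. After fruit removal they were 6.37 and 5.91 at 6 h, 6.47 and 5.98 at 24 h, and 6.10 and 7.02 at 48 h. Arrested and fruit removal arrays overlapped throughout, and only the growing arrays stood apart from the other inflorescences. RVE8 fell in growing inflorescences by 1.64 ± 0.33, or 3.12-fold (limma adjusted p = 0.0096). Against arrested, its differences at 6 h, 24 h and 48 h were -0.12, -0.03 and 0.30, and none was called.

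The day genes PRR7 and PRR5 were lower after fruit removal, and growing inflorescences lay near the arrested ones. PRR7 read 10.32 and 9.36 in arrested, 9.19 in fertile growing and 9.01 in sterile growing inflorescences. It then read 8.28 and 8.40 at 6 h, 7.5 and 5.86 at 24 h, and 7.36 and 8.03 at 48 h. Every fruit removal array thus lay below every arrested and growing array. PRR7 fell at 24 h by 3.16 ± 0.54, or 8.94-fold (limma adjusted p = 0.0068), and at 48 h by 2.14 ± 0.54 (limma adjusted p = 0.023), while the 6 h difference was -1.5 ± 0.54 (limma adjusted p = 0.086). At 24 h it was called under all 14 alternatives, with differences between -3.98 and -2.34. Against g-coded arrested replicate 2 alone, the 48 h difference was -1.66 and was not called (limma adjusted p = 0.088). That call was also lost without either 48 h array.

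PRR5, which acts after PRR7 in the day, fell at all 3 times. It read 7.73 and 6.60 in arrested, 7.75 in fertile growing and 6.50 in sterile growing inflorescences, so the growing arrays spanned the arrested ones. The fruit removal arrays read 5.30 and 5.16 at 6 h, 4.47 and 4.92 at 24 h, and 5.15 and 5.29 at 48 h. All 6 lay below each arrested and growing array. The falls were 1.94 ± 0.35 at 6 h (limma adjusted p = 0.0089), 2.47 ± 0.35 at 24 h (limma adjusted p = 0.004) and 1.94 ± 0.35 at 48 h (limma adjusted p = 0.0062). At 24 h and 48 h PRR5 was called under all 13 alternatives that tested it. At 6 h the call was lost without either 6 h array, and the highest adjusted p over its alternatives was 0.064. Its mean of 5.89 lay above 24.1% of loci.

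TOC1, the evening repressor of CCA1 and LHY, was higher in growing and lower in fruit removal inflorescences than in arrested ones. It read 8.71 and 7.91 in arrested, 9.45 in fertile growing and 9.19 in sterile growing inflorescences. At 6 h it read 6.95 and 7.15, at 24 h 7.41 and 7.90, and at 48 h 7.35 and 7.22. No fruit removal array reached an arrested array, and no arrested array reached a growing one, although 24 h replicate 2 came within 0.01 of arrested replicate 2. TOC1 rose in growing inflorescences by 1.01 ± 0.29 (limma adjusted p = 0.039), and fell at 6 h by 1.26 ± 0.29 (limma adjusted p = 0.02) and at 48 h by 1.02 ± 0.29 (limma adjusted p = 0.036). The 24 h difference was -0.66 (limma adjusted p = 0.15). Against r-coded arrested replicate 1 alone, the difference of growing inflorescences was 0.61 and was not called (limma adjusted p = 0.12). Against g-coded arrested replicate 2 alone, the 48 h difference was -0.62 and was not called (limma adjusted p = 0.1), and the 6 h difference of -0.86 was (limma adjusted p = 0.042). The call in growing inflorescences was also lost without any 1 of the 6 h or 48 h arrays, and so was the call at 48 h. The 6 h call was lost without either 6 h array.

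ELF4, a subunit of the evening complex, was higher in growing inflorescences and not called against arrested at any time after fruit removal. Its values were 8.72 and 8.09 in arrested, 10.26 in fertile growing and 9.85 in sterile growing inflorescences. They were 8.57 and 8.62 at 6 h, 8.71 and 8.83 at 24 h, and 8.52 and 7.74 at 48 h. The growing arrays stood above all others, and the fruit removal arrays lay in or near the arrested range. ELF4 rose in growing inflorescences by 1.65 ± 0.30, or 3.14-fold (limma adjusted p = 0.0064), and by 1.34 against r-coded arrested replicate 1 alone (limma adjusted p = 0.024). Against arrested, its differences were 0.19 at 6 h, 0.36 at 24 h and -0.28 at 48 h.

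GI had the widest range of the 8 genes over the inflorescence arrays, from 5.39 to 10.69, and 0.793% of all loci had a range as wide or wider. It read 10.69 in r-coded and 7.99 in g-coded arrested inflorescences, 10.20 in fertile growing and 10.00 in sterile growing ones. After fruit removal it read 8.11 and 7.84 at 6 h, 5.97 and 5.39 at 24 h, and 6.39 and 7.55 at 48 h. All 3 r-coded arrays stood at 10.00 to 10.69, and all 7 g-coded arrays lay between 5.39 and 8.11. GI fell at 24 h, with a difference of -3.66 ± 0.78, or 12.6-fold (limma adjusted p = 0.015). Against g-coded arrested replicate 2 alone this fall was 2.31 (limma adjusted p = 0.014). Without 24 h replicate 1 or replicate 2 it was not called (limma adjusted p = 0.062 and 0.099). The differences of growing, 6 h and 48 h inflorescences from arrested were 0.76, -1.36 and -2.37 and were not called, with standard errors of 0.78. Between arrays of the same code, growing inflorescences differed from arrested replicate 1 by -0.59 (limma adjusted p = 0.41), which turns the direction. The 6 h and 48 h arrays differed from arrested replicate 2 by -0.02 and -1.02 (limma adjusted p = 0.99 and 0.16). Between arrays of unlike code, growing inflorescences differed from arrested replicate 2 by 2.11 (limma adjusted p = 0.016), and the 6 h and 48 h arrays from arrested replicate 1 by -2.72 and -3.72 (limma adjusted p = 0.012 and 0.0031). The GI difference was thus wider between unlike codes than within a code in these 3 comparisons, and also at 24 h. There GI was lower either way, at -2.31 from g-coded arrested replicate 2 and -5.01 from r-coded arrested replicate 1. Each of these shifts is the same gap of 2.70 between the arrested arrays, so they are not separate observations. Whether the code lay behind that gap was not tested.

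**Figure D2:**
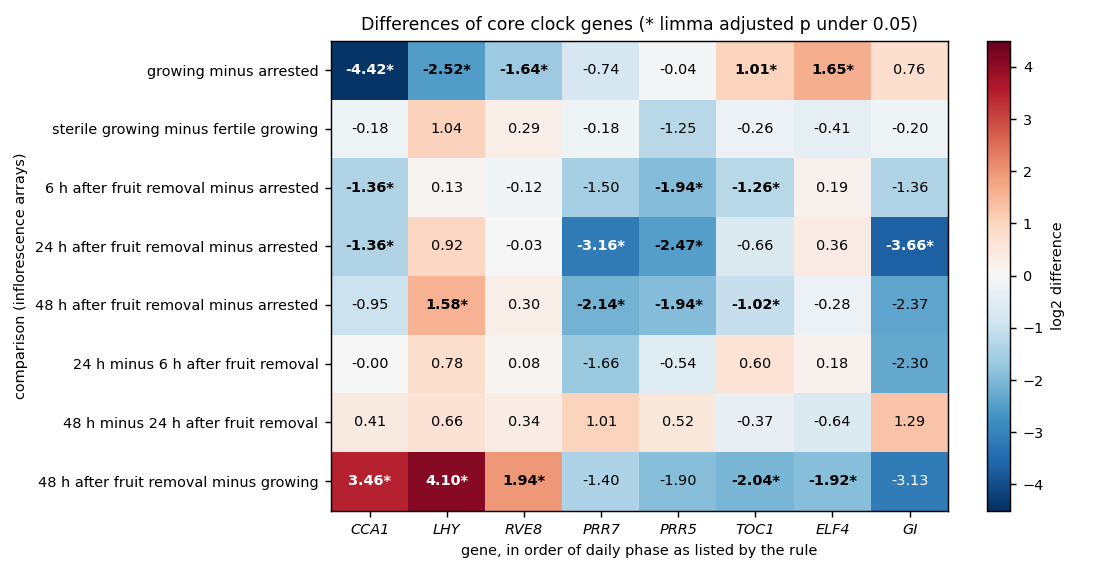
Log2 differences of the 8 measured core clock genes (columns) in 8 comparisons of inflorescence groups (rows), with an asterisk where limma gave an adjusted p under 0.05. In growing inflorescences the dawn genes CCA1, LHY and RVE8 were lower and TOC1 and ELF4 higher than in arrested ones, and the 48 h arrays differed from growing ones the other way.

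Counted over the 8 genes, 2 rose and 3 fell in growing against arrested inflorescences and 3 were not called, where 14.0% of all loci rose and 11.9% fell. At 6 h 0 rose and 3 fell, against 8.70% and 13.1% of all loci. At 24 h 0 rose and 4 fell, against 10.5% and 11.5%. At 48 h 1 rose and 3 fell, against 12.5% and 13.9%. The median difference of the 8 genes was -0.39 in growing inflorescences and -1.31, -1.01 and -0.99 at 6 h, 24 h and 48 h, beside 0.06, -0.08, 0.08 and -0.02 over all loci. These 4 comparisons share the arrested arrays, so their values are not independent of each other. The counts depended on the arrays in the fit. Without either 6 h array, fewer of the 8 genes were called at 6 h, and fewer of all loci as well. The same held at 48 h without 48 h replicate 2, and at 24 h without 24 h replicate 2. Replicate 1 mattered too. Without 48 h replicate 1 the 48 h calls of PRR7 and TOC1 were lost. Without 24 h replicate 1 the 24 h call of GI was lost. Fewer of all loci were called in both cases.

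The 48 h inflorescences differed from growing ones in dawn and evening genes. The labels describe the matching meristem sample as re-activated. CCA1 stood higher at 48 h by 3.46 ± 0.35 (limma adjusted p = 0.014), LHY by 4.10 ± 0.30 (limma adjusted p = 0.0062) and RVE8 by 1.94 ± 0.33 (limma adjusted p = 0.047). TOC1 was lower, with a difference of -2.04 ± 0.29 (limma adjusted p = 0.03), and so was ELF4, at -1.92 ± 0.30 (limma adjusted p = 0.039). Thus 3 of 8 genes rose and 2 fell, where 0.585% of all loci rose and 0.486% fell. PRR7, PRR5 and GI stood at -1.40, -1.90 and -3.13 and were not called (limma adjusted p = 0.24, 0.056 and 0.11). Every growing array was r-coded and every 48 h array g-coded. With the code as a term of the fit, estimated from the arrested pair alone, CCA1 (3.96, limma adjusted p = 0.034) and LHY (4.74, limma adjusted p = 0.014) were called and the other 6 were not. Without either 48 h array, 1 of the 8 genes was called, LHY. Without any 1 of the 6 h or 24 h arrays, 2 were called, and RVE8, TOC1 and ELF4 were not among them.

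Between the times after fruit removal, limma called 0 of the 8 genes. From 6 h to 24 h it called 0% of all loci, in this fit and under every alternative run, and 2329 loci had an unadjusted p under 0.05, among them 3 of the 8 genes. These were LHY, at 0.78 (unadjusted p = 0.033 in limma), PRR7, at -1.66 (0.016), and GI, at -2.30 (0.02), so both 24 h arrays read lower than both 6 h arrays in PRR7 and GI and higher in LHY. From 24 h to 48 h 0.561% of all loci were called, and 0 of the 8 genes had an unadjusted p under 0.05. The differences from 24 h to 48 h ran from -0.64 for ELF4 to 1.29 for GI. Sterile and fertile growing inflorescences were 1 array each, with the spread taken from the other groups. Only 0.670% of all loci were called between them, so that 0 calls among the 8 genes say little about these genes. The widest differences were 1.04 ± 0.43 for LHY and -1.25 ± 0.49 for PRR5 (limma adjusted p = 0.25 and 0.24), sterile minus fertile.

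The arrays of a replicate pair differed more in the clock genes than in the typical locus. In the arrested pair the median gap, without sign, was 0.725 over the 8 genes and 0.34 over all loci. At 6 h these were 0.235 and 0.12, at 24 h 0.49 and 0.23, and at 48 h 0.64 and 0.23. The r-coded arrested array was the higher of the pair in 7 of 8 genes, RVE8 being the exception at 6.21 against 6.30. The widest gap was that of GI, at 2.70, and 0.58% of all loci had a gap as wide or wider. All 11 measured genes of a list induced by darkness or low sugar were lower in this same array than in the g-coded one. Their list means were 7.95 and 10.99, with the asparagine synthetase ASN1 at 7.03 and 11.85 and the dark-induced gene SEN1 at 7.18 and 13.37. The part of this difference in the clock genes was not tested. In the 24 h pair PRR7 was the most unequal gene, at 7.5 and 5.86, and 0.193% of all loci had a wider or equal gap.

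**Figure D3:**
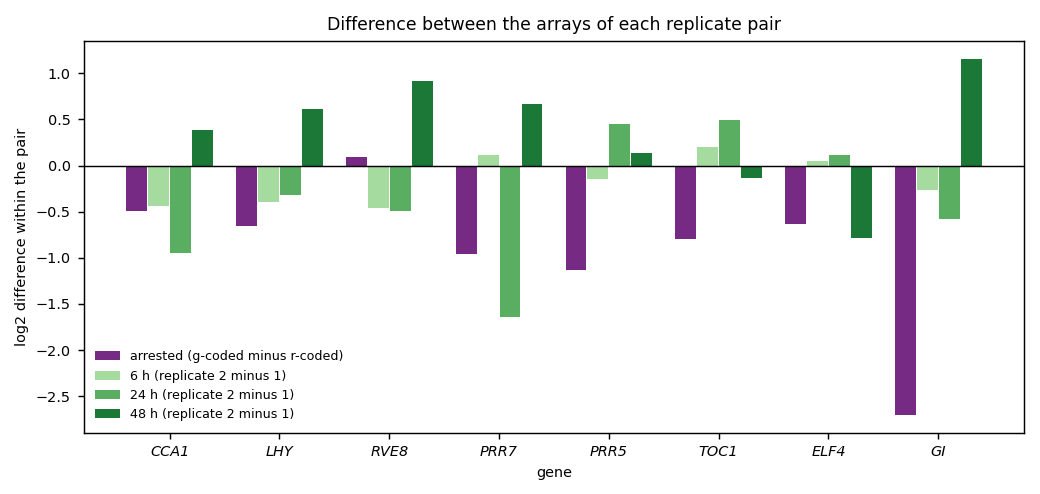
Log2 difference between the arrays of each replicate pair of inflorescence groups, for the 8 measured core clock genes, with bars starting at 0. The largest gap was that of GI in the arrested pair, where the g-coded array read 2.70 lower, followed by PRR7 in the 24 h pair.

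Other clock genes were taken from lists that did not hold the 8 genes, and most that moved were lower than in arrested inflorescences. Of 10 measured reveille and LNK genes, MYB relatives of RVE8 and the coactivators that bind them, 0 rose and 6 fell in growing inflorescences. Of all loci 14.0% rose and 11.9% fell, and all 10 of the listed genes had negative differences. LNK3 stood at -3.92 ± 0.48 (limma adjusted p = 0.0012), LNK4 at -3.17 ± 0.54 (limma adjusted p = 0.0049) and RVE1 at -2.76 ± 0.63 (limma adjusted p = 0.016). The list median was -1.76. At 6 h 3 of the 10 fell, at 24 h 5 and at 48 h 3, while 0 rose at any time. Of all loci 13.1%, 11.5% and 13.9% fell and 8.70%, 10.5% and 12.5% rose. RVE4, a close relative of RVE8, stood at -2.24 at 6 h and at -1.29 at 48 h. LNK3 and LNK4 were at -2.31 and -2.87 at 24 h and at -1.75 and -1.78 at 48 h. RVE8 itself was not called at these times. With the title code in the fit, 4 of the 10 fell in growing inflorescences and 3, 4 and 4 at 6 h, 24 h and 48 h.

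Among 13 other evening and post-translational clock genes, 2 rose and 3 fell in growing inflorescences, where 14.0% of all loci rose and 11.9% fell. JMJD5, a JmjC-domain gene expressed in the evening, rose by 2.35 ± 0.45 (limma adjusted p = 0.0076), while ELF4-L2, a relative of ELF4, fell by 1.48 and the clock regulator TIC by 0.80. After fruit removal 4, 4 and 5 of the 13 fell at 6 h, 24 h and 48 h, and 0 rose. Of all loci 13.1%, 11.5% and 13.9% fell and 8.70%, 10.5% and 12.5% rose. ELF3, the scaffold of the evening complex, read 9.71 and 9.42 in arrested, 9.28 in fertile growing and 9.58 in sterile growing inflorescences. It read 7.86 and 8.03 at 6 h, 8.27 and 8.84 at 24 h, and 8.20 and 7.94 at 48 h, so every fruit removal array lay below every arrested and growing one. ELF3 fell by 1.62 ± 0.24 at 6 h (limma adjusted p = 0.0046), 1.01 ± 0.24 at 24 h (limma adjusted p = 0.021) and 1.5 ± 0.24 at 48 h (limma adjusted p = 0.0037). Its partner ELF4, given above, was not called at these times.

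Of 15 genes read as outputs of the clock, 1 rose and 12 fell in growing inflorescences, where 14.0% of all loci rose and 11.9% fell. The list median was -1.16. The growth factor gene PIF5 stood at -3.26 ± 0.41, the CONSTANS-like gene COL1 at -3.00 ± 0.61 and the catalase CAT2 at -2.86 ± 0.35 (limma adjusted p = 0.0012, 0.01 and 0.0012). The riser was GRP7, an RNA-binding protein of the evening, at 1.00 ± 0.26 (limma adjusted p = 0.028; chosen after the values were seen). With the title code in the fit, 0 of the 15 rose and 10 fell, so the call of GRP7 was lost. Over all loci 13.1%, 11.5% and 13.9% fell at 6 h, 24 h and 48 h, and 8.70%, 10.5% and 12.5% rose. Of the 15 genes 10 fell at 6 h, 8 fell and 1 rose at 24 h, and 9 fell at 48 h. With the title code in the fit, 9, 10 and 9 fell and 0 rose, so the riser at 24 h, the flowering regulator CO at 0.72, was no longer called (CO was named after its value was seen). CDF3, a Dof factor made in the morning, fell at all 3 times, with differences of -1.78, -3.00 and -2.41. PIF5 stood at -2.97 at 24 h and -2.65 at 48 h, and its relative PIF4 at -1.57 at 6 h and -1.63 at 48 h. Between 48 h and growing inflorescences COL2 rose by 2.67 ± 0.27 (limma adjusted p = 0.014) and GRP7 fell by 1.71 ± 0.26 (limma adjusted p = 0.038), and the other 13 were not called. Of all loci 0.585% rose and 0.486% fell. The groups share no code, and with the title code in the fit 0 of the 15 were called.

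**Figure D4:**
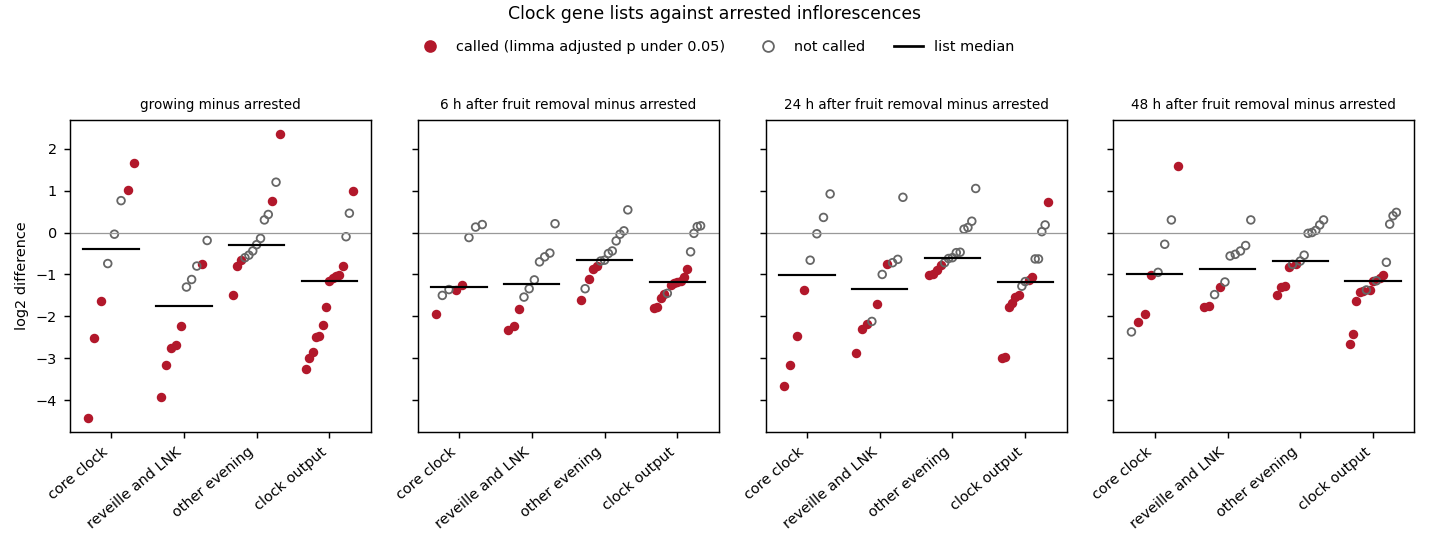
Log2 differences from arrested inflorescences of the 8 core clock genes and of 10, 13 and 15 measured genes in 3 other clock lists, 1 point per gene, filled where limma gave an adjusted p under 0.05, with black bars for list medians. Most called genes lie below 0 in all 4 comparisons, and the exceptions are 5 genes in growing inflorescences, 1 at 24 h and 1, LHY, at 48 h.

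Markers of other cell types also differed between these groups. Against arrested, 14.0% of all loci rose and 11.9% fell in growing inflorescences. The shares were 8.70% and 13.1% at 6 h, 10.5% and 11.5% at 24 h, and 12.5% and 13.9% at 48 h. A count of 1 in a list of 6 or 8 genes is near these shares and says little about the list. All 9 measured tapetum markers rose in growing and in 48 h against arrested inflorescences, and their list means were 5.13 and 5.29 in arrested, 10.07 and 11.02 in growing, 5.03 to 5.39 at 6 h and 24 h, and 9.34 and 10.19 at 48 h. The 48 h and the growing arrays both stood high for tapetum markers, but not equally. From growing to 48 h inflorescences the median difference of the 9 markers was -1.1, and 1 of the 9 fell, where 0.486% of all loci fell. Of 8 green tissue markers 4 fell in growing inflorescences and 7, 6 and 3 at 6 h, 24 h and 48 h. Their list means were 13.07 in both arrested arrays, 12.14 and 12.59 in growing, and 11.69 to 12.77 after fruit removal. Of 6 vascular markers 3 fell in growing inflorescences, the phloem and transport genes SULTR2;1 (-3.44), SUC2 (-2.65) and APL (-1.06), and the other 3 had positive differences and were not called. Their list means were 8.05 and 8.15 in arrested and 7.23 and 7.26 in growing arrays. After fruit removal 1, 1 and 3 of the 6 rose at 6 h, 24 h and 48 h and 0, 2 and 2 fell, with the vascular regulator HB8 rising by 1.00 at 6 h and by 1.26 at 24 h. Of 8 shoot meristem markers 1 rose and 2 fell in growing inflorescences, with the stem cell regulator WUS at 2.46, TFL1 at -1.69 and CLV1 at -1.12. At 48 h the same 3 were called, at 1.85, -1.72 and -0.94. Means of this list lay between 7.16 and 7.72 in all inflorescence arrays. The part of these markers in the clock gene differences was not tested.

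In the dissected meristems, 7 of the 8 clock genes were highest in the arrested array, with ELF4 the exception. With 1 array per group there was no replicate check, and no test was made. RNA of the meristems was amplified before labelling, so levels were not set against those of inflorescences. The mean of the 8 shoot meristem markers was 9.4 to 9.72 in the meristem arrays. Single markers differed widely, with STM at 11.25 to 11.41, CLV3 at 8.47 to 9.26 and CUC2 at 6.52 to 7.25. CLV1, WUS and UFO were lowest in the arrested meristem, at 8.55, 7.35 and 10.23. In the other meristems they read 10.33 to 10.91, 8.09 to 8.61 and 10.84 to 11.55. STM, CLV3, CUC2 and TFL1 were highest in the arrested meristem, and BP lay in between.

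CCA1 read 8.06 in the arrested, 6.69 in the fertile growing and 5.98 in the sterile growing meristem, and 7.17 at 48 h after fruit removal. LHY read 7.95, 7.13, 7.17 and 7.67 in the same order, and RVE8 read 5.68, 5.24, 4.85 and 5.44. In all 3 dawn genes the 48 h meristem thus lay between arrested and growing meristems. PRR7 read 9.76, 9.07, 8.82 and 8.6, and PRR5 read 7.40, 6.23, 6.50 and 5.54, so that the 48 h meristem was the lowest in both. TOC1 read 10.27, 9.66, 9.47 and 9.34, and GI read 11.32, 10.25, 10.10 and 9.94, again lowest at 48 h. ELF4 read 8.69, 8.64, 9.29 and 9.04, and was highest in the sterile growing meristem.

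At least 2-fold below the arrested meristem were 3 of 8 genes in the fertile growing meristem (CCA1, PRR5 and GI), 2 in the sterile growing one (CCA1 and GI) and 3 at 48 h (PRR7, PRR5 and GI). Of all loci 5.17%, 6.12% and 5.66% were as much lower. In none of the 3 meristems was a clock gene at least 2-fold higher, compared with 5.47%, 7.10% and 6.53% of all loci. The median difference of the 8 genes was -0.75 in fertile growing, -0.86 in sterile growing and -0.91 in 48 h meristems, and that of all loci 0.04, 0.10 and 0.08. The reveille and LNK list had medians of -1.08, -1.40 and -1.14, and 5, 7 and 6 of its 10 genes were at least 2-fold lower. The mean of the dark and low-sugar list was 8.33 in the arrested meristem and 7.11 to 7.76 in the others. Its part in the clock gene values was not tested.

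**Figure D5:**
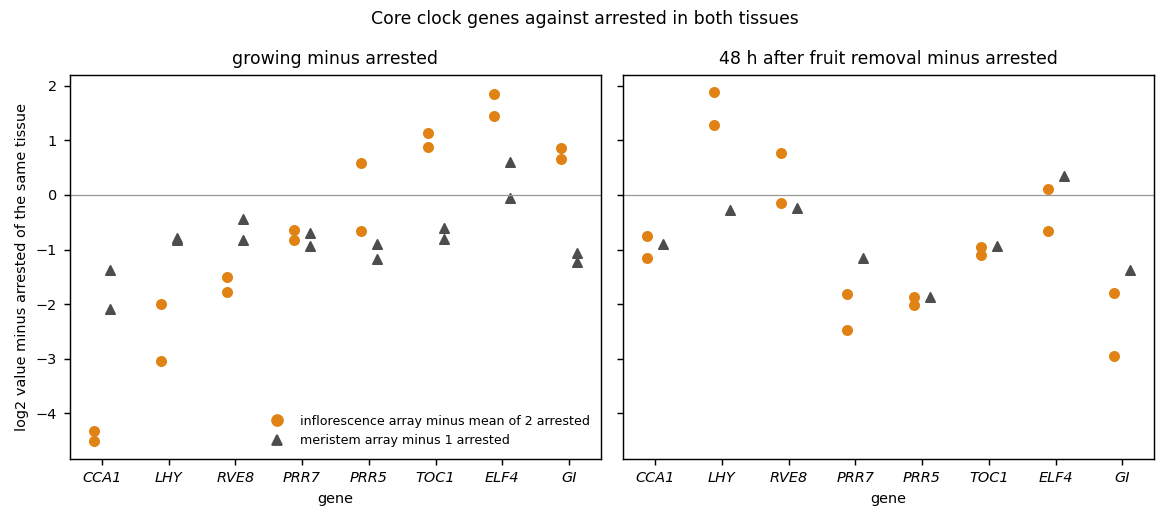
Log2 values of the 8 measured core clock genes in growing arrays (left) and 48 h arrays (right) minus arrested of the same tissue, with 1 point per array, circles for inflorescences and triangles for meristems. Growing meristems lay below arrested for TOC1 while growing inflorescences lay above both arrested arrays. For GI the growing inflorescences lay above the arrested mean but below the r-coded arrested array, as growing meristems lay below theirs. CCA1, LHY and RVE8 were lower in growing arrays of both tissues.

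Genes with the most similar course over the 10 inflorescence arrays were found by the root mean square difference between profiles, each centred on its own mean. For TOC1 the nearest was PRR3, a pseudo-response regulator gene of the same family, at 0.22, where the profile of TOC1 itself departed from its mean by 0.85. PRR3 was not called in growing inflorescences, at 1.2 (limma adjusted p = 0.079). For CCA1 the nearest was STH, a B-box gene, at 0.43 against 1.51, followed by the nicotianamine synthase gene NAS1 at 0.55 and CYP72A8 at 0.58. For RVE8 it was ACA1, a carbonic anhydrase gene, at 0.22 against 0.74, and BBX18, a B-box gene, came next at 0.34. BBX18 was also the nearest to LHY, at 0.71 against 1.43, ahead of HYH, a bZIP gene of light signalling, at 0.72. PRR5 was nearest to ATGA2OX1, a gibberellin-inactivating enzyme gene, at 0.37 against 1.12, and ELF4 to GRP2B at 0.31 against 0.71. For PRR7 the nearest was CYP71A28 at 0.46 against 1.19. For GI the nearest was the cold-induced gene LTI78 at 0.80, followed by PRR7 at 0.84, against 1.73.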

How the data were processed

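Inflorescence (10) and meristem (4) arrays were analysed from the deposited table of values by locus and array. They were read as log2 values because they ran from 0 to 14.13 with 2 decimals. The sources used here do not say how the authors normalized the deposited log2 values. No normalization was added. Of 21253 rows, 58 named as array controls were dropped, which left 21195 loci.

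The inflorescence arrays were fitted with 1 mean per group (6 groups, 4 residual degrees of freedom) by lmFit, contrasts.fit and eBayes of limma 3.58.1 under R 4.3.3. Each of 8 two-sided comparisons was adjusted over all loci by Benjamini-Hochberg, with calls at an adjusted p under 0.05. The number of arrays limits the precision. The fit was tested on simulated data, but the outcome is not given here and lends no weight to the calls. Names came from RefSeq genes of TAIR10.1 by locus, with 21097 loci matched, and of 95 list entries 88 had a value row. In each comparison, up to 3 called genes with the largest difference were named from every other list, and up to 3 nearest profiles per clock gene. The members and lists were chosen with earlier results of these data known. A search of promoters was planned and not run.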

Additional observations from a re-analysis of the deposited data

Results flagged for a closer look

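In 2 of the clock genes, every array moved one way in inflorescences and the other way in meristems. TOC1 in growing against arrested plants differed by 1.01 in inflorescences, where both growing arrays lay above both arrested ones, and by -0.70 in meristems, where both growing arrays lay below the arrested one. LHY at 48 h after fruit removal against arrested differed by 1.58 in inflorescences and by -0.28 in meristems. The difference between the tissues was not tested. The rise of TOC1 in inflorescences was not called against r-coded arrested replicate 1 alone (0.61). The meristem difference of LHY was smaller than the residual standard deviation of LHY among inflorescence replicates, 0.36.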

How the results depend on the processing

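Alternatives were quantile normalization, median centring, a filter that kept loci above the median level (and left out RVE8 and PRR5), the trend and robust settings of eBayes, a block for the title code, only the compared groups, and each replicate left out. CCA1 and LHY in growing inflorescences, PRR7 and PRR5 at 24 h and PRR5 at 48 h were called under every alternative that tested them. With only the compared groups, the clock genes called were 2 in growing against arrested inflorescences (5 as reported), 1 at 6 h (3) and 0 at 48 h against growing (5). Sterile against fertile growing could not be fitted that way. With the code as a block, 2 were called at 48 h (4) and 2 at 48 h against growing (5). Leaving out 1 replicate gave 4 to 6 in growing inflorescences, 0 to 4 at 6 h, 2 to 5 at 24 h, 1 to 5 at 48 h and 1 to 7 at 48 h against growing. Some uncalled differences changed sign. With the code as a block, GI in growing inflorescences was -0.59 and ELF4 at 48 h was 0.04, and with quantile normalization RVE8 from 6 h to 24 h was -0.11. Without 1 replicate, growing against arrested ran from -0.6 to 0.52 for PRR5 and from -0.59 to 2.11 for GI. At 6 h LHY ran from -0.2 to 0.46, RVE8 from -0.34 to 0.12 and ELF4 from -0.12 to 0.5. RVE8 ran from -0.28 to 0.22 at 24 h and from -0.16 to 0.76 at 48 h, and ELF4 at 48 h from -0.66 to 0.12. From 6 h to 24 h CCA1 ran from -0.48 to 0.47 and RVE8 from -0.16 to 0.33, and from 24 h to 48 h CCA1 from -0.06 to 0.88 and RVE8 from -0.12 to 0.8. The cause was not tested. Over all loci, calls ranged from 1112 to 7000 in growing inflorescences (5483 as reported), 956 to 5787 at 6 h (4622), 1786 to 5720 at 24 h (4658), 2723 to 6555 at 48 h (5596), 27 to 193 from 24 h to 48 h (119), 42 to 858 for sterile against fertile (142) and 0 to 1237 at 48 h against growing (227). No paired analysis was possible because the labels give no replicate numbers shared between groups.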
